A study of Mus musculus with 2 samples.

Results

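Genes of the splicing machinery and of its hnRNP regulators were followed in 2 libraries of CD8+ regulatory T cells. Members were all genes listed in both count files whose symbol begins with Srsf, Sfrs, Sf3a, Sf3b, Snrp, Hnrnp, Hnrp, Prpf, U2af, Celf or Mbnl, which gave 77 of 22609 listed genes. By symbol they fell into 12 SR protein genes, 3 U2AF genes, 3 SF3A and 5 SF3B genes and 12 Snrp genes. The rest were 13 Prpf genes, 20 hnRNP genes, 6 CELF genes and 3 MBNL genes. Sfrs18 was counted among the SR protein genes by its symbol alone. Spleens of 3-month-old naive mice were the source of the sorted cells, whose total RNA was sequenced. There was 1 WT library and 1 Tgfbr2-/-Eomes-/- library, called DKO here. Tgfbr2 encodes the type II receptor for TGF-beta, and Eomes a T-box transcription factor. The labels name no other allele or agent, and they do not give how the genes were deleted, in which cells, or how many mice were pooled. With 1 library per genotype there is no replicate check and no p-value. Each interval below is an exact 95% interval for counting error, and it compares 2 libraries, not 2 genotypes.

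Splicing removes introns from pre-mRNA. The U1 snRNP binds the 5′ splice site, U2AF binds the 3′ splice site and brings in the U2 snRNP with its SF3A and SF3B subcomplexes, and the U4/U6.U5 tri-snRNP, which holds several PRPF proteins, joins before catalysis. SR proteins mostly promote the use of nearby exons, whereas hnRNP proteins often oppose it, and CELF and MBNL proteins are antagonistic regulators of developmental splicing switches. In T cells, hnRNPLL and hnRNPL silence the variable exons of Ptprc, which encodes CD45, when naive cells become activated or memory cells.

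The members held 1.29% of 22307065 gene counts in WT and 1.20% of 19661212 in DKO. Levels are given as CPM, a gene's count scaled to the size of its library with TMM, and levels are compared between genes only as TPM, which also divides by exon length. Both targeted genes were lower in DKO, but both kept many counts there. Eomes had 469 CPM in WT and 180 CPM in DKO (3589 counts), 2.61-fold lower. Tgfbr2 had 357 and 244 CPM (4882 counts in DKO), 1.46-fold lower. Counts per gene do not show whether an exon was deleted, and the source of the remaining counts was not tested. Cd3e (305 and 252 CPM) and Cd8a (998 and 978 CPM) were detected at high level in both libraries, as the T cell label requires. Markers of other cells were mostly higher in DKO. Summed levels in WT and DKO were 102 and 252 CPM for the 7 CD4 and FOXP3 T cell markers, 2076 and 2490 CPM for 7 NK cell markers and 1165 and 3160 CPM for 7 myeloid markers. They were 69.6 and 170 CPM for 6 dendritic cell markers, 47.6 and 64.9 CPM for 6 B cell markers, 281 and 504 CPM for 3 plasma cell markers and 2.83 and 9.30 CPM for 5 erythroid and platelet markers. Of these markers, Ebf1 was listed at 0 in DKO, and Hba-a1 and Hbb-b1 in both. Among the 7 NK cell markers, 5 were higher in DKO and 2 were lower. The lower ones were Nkg7, at 1221.5 CPM in WT and 1121.3 CPM in DKO, and Klre1, at 150 and 93.1 CPM. The 10 proliferation genes summed to 454 and 723 CPM. Splicing genes are expressed in all of these cell types, and the part of other cells or of cycling cells in the ratios below was not tested. Fewer cells of a type and less RNA per cell cannot be told apart in such bulk samples.

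Differences between the libraries were small, and most lay towards lower levels in DKO. Of the 77 members, 73 reached 1 CPM in either library, and Celf3, Celf5, Celf6 and Snrpn were listed at 0 in both. None of the 73 was at least 2-fold higher or at least 2-fold lower in DKO with an interval that left out 1. Among all 11735 genes that reached 1 CPM, 11.6% were 2-fold higher and 3.6% were 2-fold lower. At 1.5-fold there was 1 higher member, Snrpa1, and 1 lower member, U2af1l4, or 1.37% in each direction, against 17.7% and 8.41% of all genes. At 1.25-fold, 4 members (5.48%) were higher, against 25.4% of all genes. The 16 members (21.9%) that were lower by this limit stood beside 19.4% of all genes. The log2 ratio lay below 0 for 54 of 73 members (74.0%) and for 49.8% of all genes. The median log2 ratio was -0.17 for the members and 0.00 for all genes. Intervals left out 1 on the lower side for 42 members (57.5%) and on the higher side for 11 (15.1%), against 35.7% and 35.8% of all genes, and included 1 for 20. Intervals are narrower at higher counts, and the median WT level was 101 CPM for members and 32.7 CPM for all genes. These interval shares therefore do not compare genes of like abundance.

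**Figure D1:**
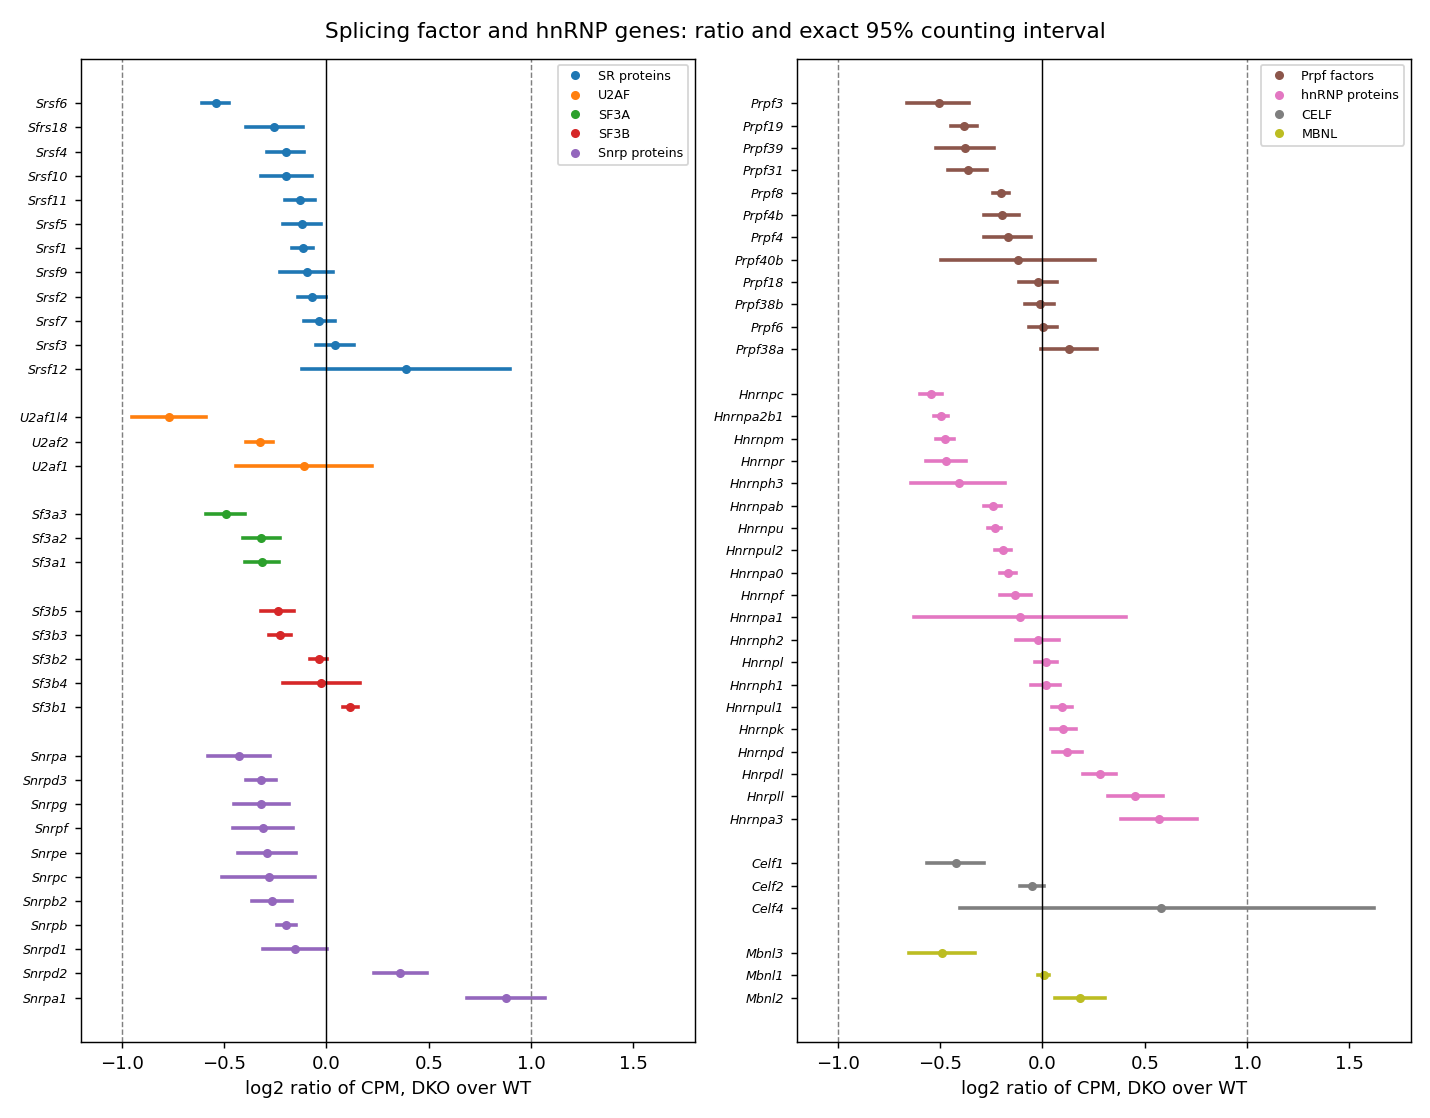
Log2 ratio of CPM, DKO over WT, for the members that reached 1 CPM, except 1 that is not shown, one per row and coloured by class; points are ratios, bars are exact 95% counting intervals, and dashed lines mark 2-fold. All points lie between the dashed lines, from U2af1l4 at -0.77 to Snrpa1 at 0.88.

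Ratios of all genes varied with abundance. Members were abundant, with a median of 101 CPM in WT and 92.0 CPM in DKO, where all genes tested had 32.7 and 33.2 CPM. Bands were set by the higher CPM of the 2 libraries. At 1 to 20 CPM the median log2 ratio was -0.11 for 7 members and 0.27 for 4180 genes. In this lowest band 37.5% of all genes had a ratio below 0. At 20 to 100 CPM the medians were -0.16 for 28 members and -0.02 for 4928 genes. From 100 to 300 CPM the medians were -0.17 for 24 members and -0.09 for 1975 genes, and at 300 CPM or more they were -0.19 for 14 members and -0.12 for 652 genes. Among genes at 100 CPM or more, 65.1% had a ratio below 0, and 18.3% were at least 1.25-fold lower, against 8 of 38 members (21.1%). At this abundance 0 of 38 members passed 2-fold, against 2.17% of the genes in the higher and 0.761% in the lower direction. Likewise 0 passed 1.5-fold, against 4.07% higher and 3.65% lower. Also 0 of 38 members were at least 1.25-fold higher, against 8.68% of the genes. The median size of the log2 ratio, regardless of sign, was 0.20 for the 24 members and 0.19 for all genes at 100 to 300 CPM. Whether the members differ from other genes of like abundance was not tested.

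**Figure D2:**
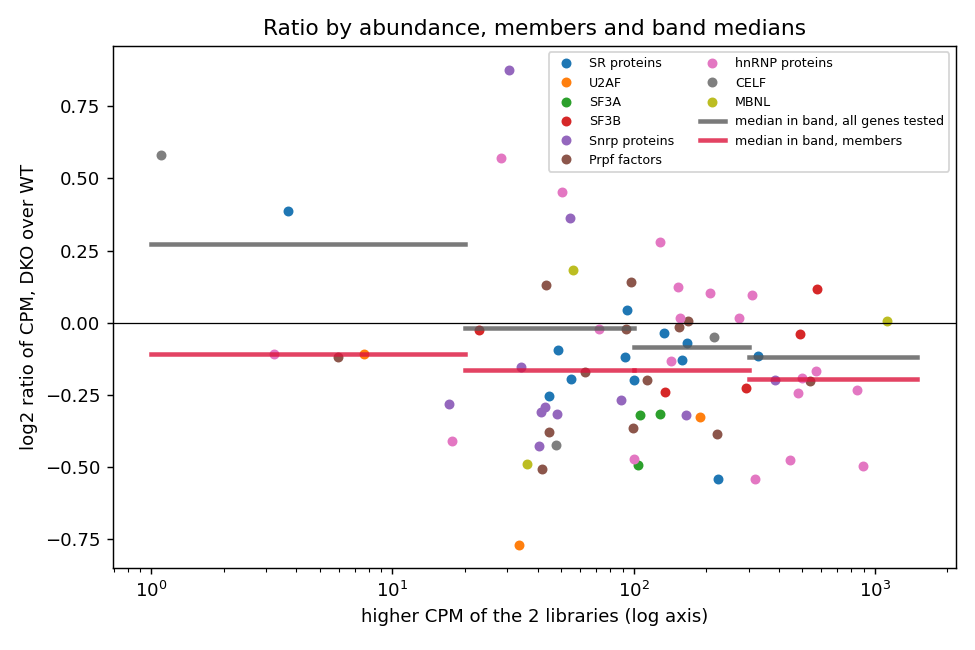
Log2 ratio of CPM, DKO over WT, against the higher CPM of the 2 libraries on a log axis, with members as points coloured by class. Horizontal bars give the median of members (red) and of all genes tested (grey) in 4 abundance bands; the red bar is at -0.17 and the grey bar at -0.09 from 100 to 300 CPM.

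Recognition of the 3′ splice site rests on U2AF. U2af2, the large subunit that reads the polypyrimidine tract, had 4133 counts in WT and 3002 in DKO. Its level was 188 CPM in WT and 150 CPM in DKO, 1.25-fold lower in DKO (interval 1.20 to 1.32). U2af1l4, a paralog of the small subunit, gave 737 and 394 counts (33.6 and 19.7 CPM) and came out 1.70-fold lower (1.51 to 1.93), the largest lower ratio of the members. Its exons overlap those of Gm49396 on the same strand over 95.3% of their length in the reference annotation. Whether the annotation used for counting holds Gm49396, and how reads over both genes were treated, are not given. U2af1, the small subunit that contacts the AG of the intron end, had only 168 and 142 counts and 7.66 and 7.10 CPM, with a ratio whose interval included 1 (1.08-fold lower, 0.857 to 1.36).

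Exon sequence of U2af1 and of some other members is also found in genes elsewhere. Reads were 50 bases long, and the count files hold a large row of non-unique alignments. In the reference transcripts, 46.5% of all 50-base windows of U2af1 occur in no gene of another locus, the lowest share of the members, followed by Sf3b4 (50.7%), Hnrnpf (52.6%) and Hnrnpa1 (53.3%). Within the coding sequence, 564 of 648 U2af1 windows (87.0%) and 845 of 1050 Hnrnpa1 windows (80.5%) are held letter for letter by a gene elsewhere. For Hnrnpa3 the share is 1053 of 1068 coding windows (98.6%), and 41 annotated pseudogenes hold some of its exon windows. Shared windows did not always go with low counts: Hnrnpf shares 1129 of 1176 coding windows (96.0%) and had 3150 counts in WT and 2621 in DKO. The stretches below, from GENCODE M21 transcripts on GRCm38, show for each gene the coding window held by the largest number of other genes, with the 50 shared bases in capitals between 10 flanking bases. The U2af1 window, coding bases 11 to 60 counted from the start codon, occurs in 3 other genes. The Hnrnpa1 window, bases 455 to 504, occurs in 9, and the Hnrnpa3 window, bases 112 to 161, in 23.
U2af1: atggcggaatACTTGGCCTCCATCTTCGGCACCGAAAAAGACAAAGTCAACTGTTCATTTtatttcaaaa
Hnrnpa1: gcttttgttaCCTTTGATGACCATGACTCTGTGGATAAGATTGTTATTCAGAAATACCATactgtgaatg
Hnrnpa3: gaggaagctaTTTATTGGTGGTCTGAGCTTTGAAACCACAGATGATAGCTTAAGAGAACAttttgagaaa

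Hnrnpa1, which encodes an hnRNP core protein, had 71 counts in WT and 60 in DKO, or 4.01 and 3.76 TPM. Its family members Hnrnpa2b1 and Hnrnpa0 stood at 872 and 505 TPM in WT. If reads from shared windows entered the non-unique row, which was not tested, the TPM of Hnrnpa1, U2af1 and Hnrnpa3 understate their levels. Most members had few such windows, and 57 of 77 had more than 95% of them unique. Across the 73 members the share of unique windows and the log2 ratio had a Spearman correlation of -0.02, and the same share and WT TPM one of 0.12 (a description, since the genes share the libraries).

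SF3A and SF3B carry the U2 snRNP onto the branch point. The 3 SF3A subunits were each lower, with a median log2 ratio of -0.32. Sf3a3 stood at 105 CPM in WT and 74.3 CPM in DKO, 1.41-fold lower (1.32 to 1.503). Sf3a2, at 106 and 85.1 CPM, was 1.247-fold lower (1.17 to 1.33), just short of the 1.25-fold limit. Sf3a1, at 129 and 103 CPM, was 1.245-fold lower (1.18 to 1.32). The SF3B subunits were closer to even, with a median of -0.04 that turned to 0.01 under scaling by total counts. Sf3b1, the scaffold that grips the branch point, stood at 531 and 576 CPM, which made it 1.08-fold higher (1.06 to 1.11). Sf3b2 had 489 and 476 CPM, with an interval that included 1. The lower ones were Sf3b3, at 294 and 251 CPM (1.17-fold), and Sf3b5, at 135 and 115 CPM (1.18-fold). Sf3b4 had 22.7 and 22.4 CPM, an even pair, with 74.6% of its coding windows also held by another gene. The difference between the SF3A and SF3B medians was not tested.

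Snrp genes encode the Sm proteins, which form a ring of 7 on every major spliceosomal snRNA except U6, and proteins specific to U1 or U2. Of the 7 Sm core genes, 6 had log2 ratios below 0 and 5 had intervals wholly below 1, against 49.8% and 35.7% of all genes. Snrpb, at 789 and 697 TPM, was second among all members in WT and first in DKO. Its level of 386 CPM in WT and 336 CPM in DKO made it 1.15-fold lower (1.11 to 1.18). Snrpd3, Snrpf, Snrpg and Snrpe lay within a narrow range, at 1.247-fold, 1.24-fold, 1.246-fold and 1.22-fold lower, all short of 1.25-fold. The exons of Snrpf overlap those of other genes over 85.4% of their length, on the opposite strand, and whether the counting used strand is not given. Snrpd1 had 749 and 613 counts and an interval that included 1. Snrpd2, which binds Snrpd1 within the ring, went the other way. It gave 934 counts in WT and 1094 in DKO (42.6 and 54.7 CPM) and came out 1.29-fold higher (1.18 to 1.40).

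Among U1 and U2 proteins the ratios went apart. Snrpa, protein A of the U1 snRNP, was 1.34-fold lower (1.21 to 1.49), at 40.5 and 30.2 CPM, and Snrpc, protein C of the same particle, was 1.22-fold lower from 375 and 281 counts. Snrpa1, protein A′ of the U2 snRNP, had the largest ratio of all members. It had 363 counts in WT and 608 in DKO (16.5 and 30.4 CPM), which is 1.84-fold higher (1.61 to 2.10). Gm45213 overlaps 11.9% of its exon bases on the same strand. Its partner on the U2 snRNA, Snrpb2 (protein B″), gave 1950 and 1477 counts (88.9 and 73.9 CPM) and came out 1.20-fold lower (1.12 to 1.29). The 2 partners thus lay on opposite sides with intervals that do not overlap. In the same libraries the U1-70K gene Snrnp70, which the symbol rule leaves out, stood at 221 and 145 CPM, which made it 1.53-fold lower (1.46 to 1.60). Snrpn was listed at 0 in both, and 34.1% of its exon bases overlap Snurf and other annotated genes.

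Prpf genes encode pre-mRNA processing factors, several of them tri-snRNP proteins. Of 13, 7 had intervals below 1, 1 above and 5 included 1, with a median log2 ratio of -0.17. The all-gene shares were 35.7% below and 35.8% above. Prpf8, the core of the catalytic centre, had 540 CPM in WT and 469 CPM in DKO and was 1.15-fold lower (1.12 to 1.18). Prpf19, a ubiquitin ligase of the activation complex, stood at 223 and 171 CPM, which made it 1.31-fold lower (1.25 to 1.36). The U4/U6 proteins were also lower: Prpf31, at 99.0 and 76.9 CPM, 1.29-fold (1.21 to 1.37), and Prpf3, at 41.8 and 29.4 CPM, 1.42-fold (1.28 to 1.58). Their U4/U6 partner Prpf4 was 1.12-fold lower (1.04 to 1.22). Prpf6, which bridges U5 and U4/U6, had 167 and 168 CPM and an interval from 0.957 to 1.05. The U1-linked Prpf39 was 1.30-fold lower from 981 and 688 counts.

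SR protein genes lay close together. Of 12, 10 had log2 ratios below 0, 8 had intervals below 1, 0 above, and the median log2 ratio was -0.12. Shares of all genes were 49.8% below 0, 35.7% with intervals below 1 and 35.8% above. Srsf6 was the exception in size: it gave 4890 counts in WT and 3060 in DKO (223 and 153 CPM) and came out 1.46-fold lower (1.39 to 1.52). No other SR gene was past 1.25-fold with an interval that left out 1. Srsf1, the prototype that also guides mRNA export and translation, stood at 329 and 303 CPM, which made it 1.08-fold lower (1.05 to 1.12). Srsf2, at 166 and 158 CPM, and Srsf5, at 92.4 and 85.1 CPM, were 1.05-fold and 1.09-fold lower, and the sign for Srsf2 reversed after the median of genes of like abundance was removed. Srsf3 had 90.9 and 93.6 CPM and Srsf7 had 134 and 131 CPM, each with an interval that included 1, and the sign for Srsf7 also depended on the scaling. Srsf10, which can act as a repressor, was 1.15-fold lower. Per length, Srsf2 led the class at 197 TPM in WT and 190 TPM in DKO. Srsf6 held 143 TPM in WT, next after Srsf2, and 99.7 TPM in DKO, behind Srsf2, Srsf1, Srsf5, Srsf7 and Srsf11. Srsf12 was the lowest, at 2.28 and 3.03 TPM, from 62 and 74 counts, 1.31-fold higher with an interval from 0.922 to 1.87. Exons of Srsf4 overlap the opposite-strand gene Gm12992 over 67.9% of their length.

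**Figure D3:**
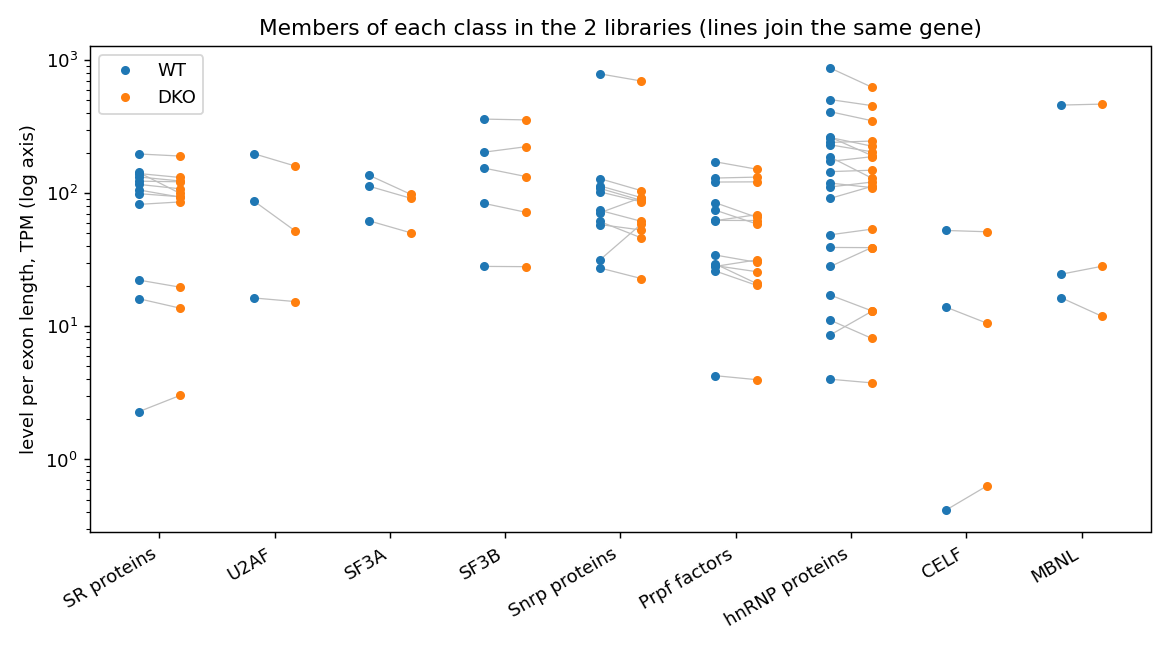
Level per exon length (TPM, log axis) of the 73 members in the WT library (blue) and the DKO library (orange), by class, with grey lines joining the same gene. Lines are nearly flat beside the spread within a class, which in WT runs from 4.01 to 872 TPM for hnRNP genes.

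hnRNP genes lay on both sides. Their summed level was 5596 CPM in WT and 4837 CPM in DKO. Of 20, 10 had intervals below 1, 6 above and 4 included 1, and the median log2 ratio was -0.12. Among all genes tested, which were less abundant, 35.7% had intervals below 1 and 35.8% above. Hnrnpa2b1, an abundant A/B-type protein, gave 19598 counts in WT and 12670 in DKO (893 and 634 CPM) and came out 1.41-fold lower (1.38 to 1.44). Per length it ranked first among members in WT at 872 TPM and second in DKO at 626 TPM, behind Snrpb. Hnrnpc, which binds uridine tracts and shields cryptic exons, stood at 320 and 220 CPM, which made it 1.46-fold lower (1.40 to 1.51), the largest lower ratio in the class. Hnrnpm, at 446 and 321 CPM, was 1.39-fold lower (1.35 to 1.44) and Hnrnpr, at 101 and 72.6 CPM, 1.39-fold lower (1.30 to 1.48). Exons of Hnrnpm overlap those of March2 on the same strand over 28.6% of their length. Hnrnpu, the nuclear scaffold attachment factor, stood at 843 and 717 CPM, which made it 1.18-fold lower (1.15 to 1.20). Its relative Hnrnpul1, at 289 and 309 CPM, was 1.07-fold higher (1.03 to 1.11).

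Higher hnRNP genes included the regulator of CD45 splicing. Hnrpll, the older symbol of Hnrnpll, gave 811 counts in WT and 1013 in DKO (37.0 and 50.7 CPM) and came out 1.37-fold higher (1.248 to 1.505). No window of its exons was found in another gene. Its paralog Hnrnpl was far more abundant per length, at 241 TPM in WT against 28.2 TPM for Hnrpll, and had an interval from 0.975 to 1.05. Ptprc itself had 2508 and 2578 CPM, and counts per gene do not show which of its exons were included. Hnrpdl was 1.21-fold higher (1.15 to 1.29), at 106 and 129 CPM, and its AU-rich element binding relative Hnrnpd 1.09-fold higher (1.03 to 1.14). Hnrnpk, which binds cytidine tracts, was 1.07-fold higher (1.03 to 1.12), at 193 and 207 CPM. Hnrnpa3 was 1.48-fold higher (1.31 to 1.69), from 416 and 563 counts. Hnrnpf, which binds G tracts, was 1.10-fold lower (1.04 to 1.15), at 144 and 131 CPM, with 7 annotated pseudogenes sharing its windows.

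In the CELF and MBNL families 1 member of each dominated. Mbnl1 had 24630 counts in WT and 22538 in DKO, the largest counts of any member. Its levels of 1123 and 1127 CPM were even, with an interval from 0.986 to 1.02, the narrowest of the members on a log scale. Mbnl2 stood at 49.2 and 55.8 CPM, which made it 1.13-fold higher (1.04 to 1.23), while Mbnl3 stood at 36.1 and 25.7 CPM, which made it 1.40-fold lower (1.26 to 1.57). Celf2, which is expressed throughout T cell development, had 215 and 208 CPM with an interval that included 1. Celf1, which binds GU-rich elements and destabilises mRNA, gave 1047 and 711 counts (47.7 and 35.6 CPM) and came out 1.34-fold lower (1.22 to 1.48). Celf4, at 16 and 22 counts, passed the minimum only through the DKO library, with an interval from 0.757 to 3.07. The order of members by TPM was nearly the same in both libraries (Spearman correlation 0.98 across 73 genes, which are not independent replicates).

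Promoter sequence was taken from RefSeq (GRCm38.p6) for 66 of 77 members, as the 250 bases before the start. Letters were searched on both strands, and no motif searched contains another. The T-box motif AGGTGTGA, named for the family of Eomes, was found in 0 of 66 member promoters and in 1.14% of 27025 promoters. The Smad motif GTCTAGAC was in 1 (Srsf1), or 1.52%, against 0.174%. Housekeeping motifs were common: GGGCGG (SP1) was in 42 of 66 (63.6%) against 32.9% of all promoters, CCGGAAG (ETS) in 16 (24.2%) against 7.05%, and CCAAT in 30 (45.5%) against 34.5%. The NRF1 motif and AAGATGGCG (YY1) were in 0, against 0.781% and 0.607%. All promoters include those of genes silent in T cells. A match is a description of letters, and no match says only that these letters are not in this window. The 150 bases before the start are shown for the 2 members past 1.5-fold and for 3 abundant members that were lower, with these motifs in capitals. Snrpa1 lies at chr7:66060186-66060335 (plus strand), U2af1l4 at chr7:30563190-30563339 (plus), Hnrnpc at chr14:52104022-52104171 (minus), Srsf6 at chr2:162931358-162931507 (plus) and Hnrnpa2b1 at chr6:51469895-51470044 (minus).
Snrpa1: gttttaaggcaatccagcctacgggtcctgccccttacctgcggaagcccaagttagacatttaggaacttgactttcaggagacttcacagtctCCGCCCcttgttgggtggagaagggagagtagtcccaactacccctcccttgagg
U2af1l4: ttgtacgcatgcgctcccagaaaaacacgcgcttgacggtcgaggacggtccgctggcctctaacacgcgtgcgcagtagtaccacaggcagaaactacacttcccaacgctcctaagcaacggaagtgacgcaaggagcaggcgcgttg
Hnrnpc: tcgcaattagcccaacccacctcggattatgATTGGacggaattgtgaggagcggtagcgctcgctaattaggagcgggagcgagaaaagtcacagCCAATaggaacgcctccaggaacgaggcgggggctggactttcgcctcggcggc
Srsf6: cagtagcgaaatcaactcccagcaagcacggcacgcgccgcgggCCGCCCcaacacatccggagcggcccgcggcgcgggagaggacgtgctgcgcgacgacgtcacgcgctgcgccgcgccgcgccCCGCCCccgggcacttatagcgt
Hnrnpa2b1: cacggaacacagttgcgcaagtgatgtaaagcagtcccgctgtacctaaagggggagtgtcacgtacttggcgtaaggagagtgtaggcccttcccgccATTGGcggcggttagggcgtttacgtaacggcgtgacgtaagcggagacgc
Srsf6 and Snrpa1 carry the GC box, and Hnrnpc and Hnrnpa2b1 the CCAAT box, on either strand. In these 150 bases U2af1l4 has no match to any motif searched.

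Other splicing genes, on lists outside the symbol rule, lay on the same side as the members. Of 151 that reached 1 CPM, 111 (73.5%) had ratios below 0, against 49.8% of all genes and 65.1% of genes at 100 CPM or more, and their median log2 ratio was -0.16. The 151 had a median level of 93.2 CPM in WT, so genes at 100 CPM or more are not a matched set. At 2-fold, 2 (1.32%) were higher and 3 (1.99%) lower, against 11.6% and 3.6% of all genes. These were Gemin8 (36 and 75 counts) and Esrp2 (14 and 64 counts) on the higher side, and Pcbp3, Lsm5 (32 and 10 counts) and Srpk3 on the lower. Pcbp3, a poly(C)-binding protein, stood at 216 and 56 counts, which made it 3.49-fold lower (2.61 to 4.81). Srpk3 had 22 counts in WT and 0 in DKO, at least 6.68-fold lower against a floor of 3 counts (0.150 CPM) in the DKO library. Esrp2, Lsm5 and Srpk3 passed the minimum of 1 CPM only through the library in which they were higher. At 1.5-fold, 5 (3.31%) were higher, against 17.7% of all genes, and 14 (9.27%) were lower, close to the 8.41% of all genes.

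Among regulators of exon choice, 43 genes had a median log2 ratio of -0.19. Of these, 3 were at least 1.5-fold higher and 5 lower, against 17.7% and 8.41% of all genes. Fubp1 stood at 263 and 142 CPM, which made it 1.85-fold lower (1.77 to 1.94). The SR protein kinases and import factors had a median of -0.16 over 12 genes, also with Srpk3 at its bound. Clk1, a nuclear kinase that phosphorylates SR proteins, stood at 126 and 191 CPM, which made it 1.51-fold higher (1.44 to 1.59), whereas Srpk1, its cytoplasmic counterpart, stood at 171 and 134 CPM, which made it 1.28-fold lower (1.22 to 1.35). RNA helicases had a median of -0.13 over 15 genes, with Ddx17 at 670 and 390 CPM, 1.72-fold lower (1.67 to 1.77).

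snRNP assembly genes had a median of -0.10 over 14 genes, with Prmt5, which methylates Sm proteins, 1.37-fold lower (1.30 to 1.45) and Gemin7 of the SMN complex 1.42-fold lower (1.34 to 1.51). Some LSM proteins bind U6 or decay intermediates, and the LSM list also holds Lsm10, Lsm11, Lsm14a and Naa38. That list had a median of -0.22 over 10 genes, 9 of them below 0, against 49.8% of all genes. In it Lsm2 was 1.74-fold lower (1.52 to 1.99). Prp19 complex and scaffold genes had a median of -0.10 over 24 genes, with Xab2 1.41-fold lower. Genes of the exon junction complex, decay and export had a median of -0.29 over 20 genes. In that list Ncbp2, of the nuclear cap-binding complex, was 1.78-fold lower (1.63 to 1.93) and Smg1, a kinase of nonsense-mediated decay, 1.63-fold lower (1.58 to 1.69). Minor spliceosome genes were even, with a median of 0.04 over 10 genes and 5 on each side. In it Zrsr1, a U2AF small subunit relative that recognises minor introns, stood at 65.3 and 32.9 CPM, which made it 1.99-fold lower (1.81 to 2.18).

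**Figure D4:**
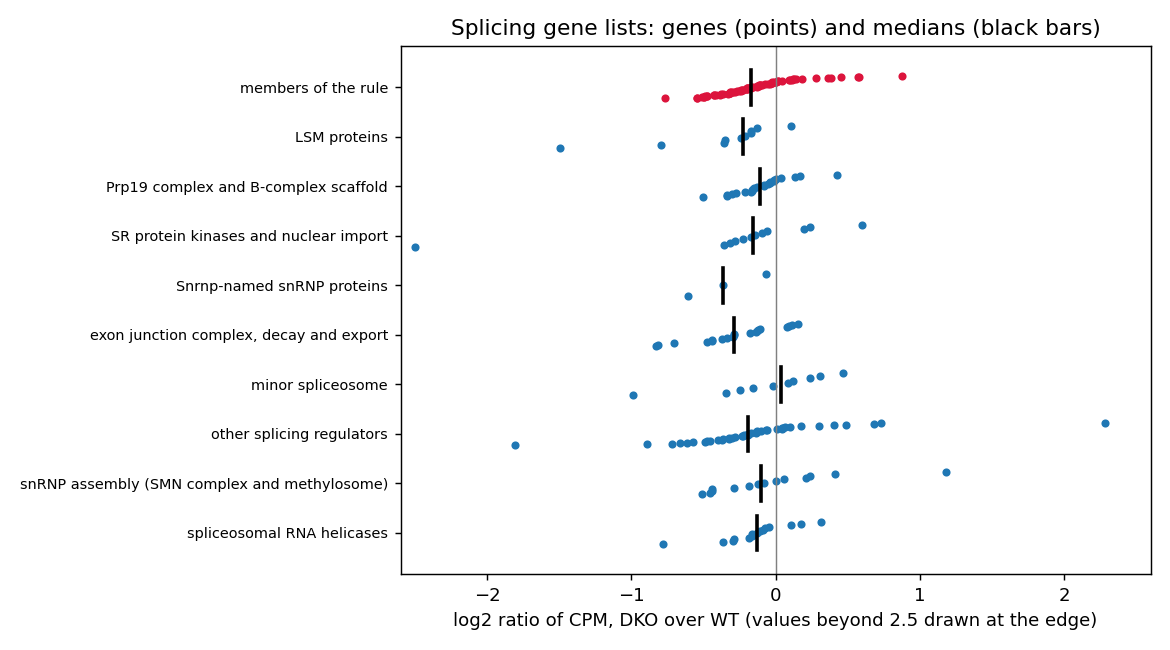
Log2 ratio of CPM, DKO over WT, for the members (red) and for genes of 9 other splicing lists (blue) that reached 1 CPM, with list medians as black bars; Srpk3 lies beyond the axis and is drawn at its left edge. Medians run from -0.37 for 3 Snrnp-named genes to 0.04 for minor spliceosome genes.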

How the data were processed

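Total RNA of sorted spleen CD8+ T cells was sequenced in 2 libraries, 1 WT and 1 DKO, as 50-base single-end reads, per the labels' protocols. The files deposited by the authors hold raw read counts, 1 whole number for each gene. Tools listed in the submitters' processing notes are HTSeq, TopHat2 2.0.8b and bcl2fastq, with mm9 as build and no roles. The gene annotation and the strand setting are not stated in these sources. The 5 rows that name no gene were left out, among them non-unique alignments (66.4% of WT and 64.8% of DKO row totals). Counts were scaled by TMM (edgeR 4.0.16, R 4.3.3; factors 0.983 and 1.02). Ratios used a prior count of 0.5, and intervals are exact Clopper-Pearson 95% intervals of the DKO share (scipy 1.17.1). They cover counting error only, and they take each read as a separate molecule. Reads that carry no molecular identifier may repeat 1 molecule, and the intervals are then too narrow. A gene was compared when 1 of the libraries, or both, reached 1 CPM. No model of variation between animals could be fitted.

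Exon lengths, overlaps and 50-base windows came from GENCODE M21 on GRCm38, not mm9, for 22210 of 22609 genes (98.2%) and all 77 members. Windows were compared with transcripts on both strands, so copies outside annotated transcripts are missed. Named members were those at 5 CPM or more past 1.5-fold, the 2 highest per class by TPM and a fixed set; from each other list up to 3 genes with the largest ratios at 5 CPM or more. Some were also named after their values were seen: Prpf3, Prpf4, Prpf39, Sf3b3, Sf3b5, Srsf11, Srsf4, Srsf12, Sfrs18, Snrpc, Snrpd1, Snrpd2, Snrpb2, Snrpe, Snrpf, Snrpg, Hnrnpa3, Hnrnpd, Hnrnpr, Hnrnpul1, Celf4 and the low-count list genes. Members, lists, motifs and the rules were chosen with earlier results of these data known. Some results on single genes are not reported here. Scripts were tested on simulated data. Alternatives were scaling by total counts, DESeq2 1.42.0 size factors or upper quartile, no minimum or 5 CPM, a prior count of 5, and removal of the median of like-abundance genes.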

Additional observations from a re-analysis of the deposited data

How the results depend on the processing

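The median log2 ratio of the members stayed below 0 under every alternative run, from -0.19 without the 7 members under 75% unique windows to -0.12 with total counts, and 0 members passed 2-fold in either direction under any of them. Scaling by total counts and by upper quartile each gave 2 members at least 1.5-fold higher in place of 1, and total counts turned the SF3B median to 0.0098. Removing the median of genes of like abundance moved the CELF median to -0.30 and the MBNL median to 0.11, and a minimum of 5 CPM moved the CELF median to -0.24. Some alternatives were chosen after seeing the data. Without the 3 members with at least 50% of exon bases shared with another gene, 0 members were 1.5-fold lower and the U2AF median was -0.22. Without U2af1, the 1 member under 50% unique windows, the U2AF median was -0.55; without the 7 members under 75%, it was -0.77 and the SF3B median -0.13. The planned test of uniqueness in the genome was not run, as no genome was used here. The cause of these moves was not tested beyond which members each alternative leaves out. Single-gene ratios were rerun only for members named by the rules set out above, not for those named later or left unnamed. Among the rerun members, Celf2, Srsf2, Srsf7, Sf3b2 and Sf3b4 changed sign under at least 1 scaling or abundance setting. The count of members with ratios below 0 was not rerun. No paired analysis was possible because each genotype has 1 library. Replicates were too few to leave any out.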
